A study of Homo sapiens with 11 samples.

Results

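The BMP and TGF-beta pathway genes examined here are the ligands, receptors, SMAD proteins and inhibitors of a single signalling family, read in 11 established cell lines of T-cell acute lymphoblastic leukemia (T-ALL), a leukemia of arrested thymocytes. They were chosen by name as a list of 33 genes, and a gene was read from array probe sets that carry its symbol alone, and where several did, from the one whose mean over all lines was highest. Of these, 32 genes with 101 probe sets were measured, out of 19775 genes on the array, and 1 gene was not analysed here. The 32 genes comprise 8 ligands, 10 receptors, 6 receptor-regulated or common SMADs and 8 inhibitors.

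The study examined homeobox genes of the NKL subclass, DNA-binding developmental regulators that some T-ALL express aberrantly, and compared T-ALL lines with and without such activity. NKL-positive lines were LOUCY, PEER, HPB-ALL, ALL-SIL, CCRF-CEM and JURKAT, and NKL-negative lines were SUP-T1, MOLT-16, MOLT-14, CML-T1 and MOLT-4. All were untreated leukemia cell lines, each hybridized to 1 array, so that the line is the replicate and differences between cultures of the same line cannot be seen. The comparison used 5 lines of each group and left JURKAT out, as in the supplementary comparison of the study, and the values of JURKAT are given beside it.

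In this family a dimeric ligand brings together type I and type II receptor kinases, and the type I receptor phosphorylates receptor-regulated SMADs, which join the common SMAD4 and enter the nucleus. BMPs act mainly through SMAD1, SMAD5 and SMAD9, whereas TGF-beta and activin act through SMAD2 and SMAD3, and several target genes of the pathway encode its own inhibitors. In the thymus BMP signals bear on the early steps of T-cell development, and TGF-beta is known for restraining T-cell proliferation and for regulatory T-cells. MSX1, an NKL homeobox gene, is known as a target of BMP signalling in embryonic tissues, and NKX2-5 is an NKL homeobox gene of heart development.

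The promoters of 4 members are shown, namely SMAD5, SMAD6, BAMBI and SMURF2. SMAD5 was low at all its probe sets in SUP-T1. At 1 of its 4 probe sets, SMAD6 stood out in CML-T1 and was low in SUP-T1 and MOLT-4. BAMBI stood out in both lines with high NKX2-5, CCRF-CEM and PEER, and also in CML-T1, in which NKX2-5 was not high. SMURF2 was lowest in CCRF-CEM and PEER, 1 of 32 members outermost in these lines, beside 2.59% of all genes. Each window holds 300 bases of the RefSeq promoter table on GRCh38.p14, 250 bases before and 50 bases after the start site, read 5′ to 3′ on the strand of the gene. The windows are chr5:136132595-136132894 on the plus strand for SMAD5, chr15:66701986-66702285 on the plus strand for SMAD6, chr10:28677271-28677570 on the plus strand for BAMBI and chr17:64662258-64662557 on the minus strand for SMURF2. Capitals mark matches on either strand to AAGTG (the core of the NKX2-5 site), TAATTG (MSX1), GTCTAGAC (the SMAD palindrome) and GGCGCC (the SMAD element of BMP target genes), of which the last 2 read the same on both strands.
SMAD5: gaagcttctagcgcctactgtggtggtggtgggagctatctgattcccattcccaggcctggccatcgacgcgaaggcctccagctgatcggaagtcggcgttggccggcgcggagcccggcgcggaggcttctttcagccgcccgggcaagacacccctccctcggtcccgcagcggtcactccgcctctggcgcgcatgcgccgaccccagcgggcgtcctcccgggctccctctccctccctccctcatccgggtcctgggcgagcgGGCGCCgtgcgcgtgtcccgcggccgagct
SMAD6: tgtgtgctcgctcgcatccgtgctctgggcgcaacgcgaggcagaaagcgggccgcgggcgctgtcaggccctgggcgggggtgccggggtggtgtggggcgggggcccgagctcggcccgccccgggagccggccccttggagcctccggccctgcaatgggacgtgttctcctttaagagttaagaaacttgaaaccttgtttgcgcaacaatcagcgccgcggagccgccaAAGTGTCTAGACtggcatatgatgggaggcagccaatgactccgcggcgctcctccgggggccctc
BAMBI: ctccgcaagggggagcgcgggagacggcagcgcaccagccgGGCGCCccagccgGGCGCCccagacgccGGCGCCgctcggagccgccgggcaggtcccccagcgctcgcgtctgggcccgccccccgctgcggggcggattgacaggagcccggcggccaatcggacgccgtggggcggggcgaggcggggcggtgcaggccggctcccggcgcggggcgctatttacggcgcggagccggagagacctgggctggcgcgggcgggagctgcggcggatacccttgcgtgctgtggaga
SMURF2: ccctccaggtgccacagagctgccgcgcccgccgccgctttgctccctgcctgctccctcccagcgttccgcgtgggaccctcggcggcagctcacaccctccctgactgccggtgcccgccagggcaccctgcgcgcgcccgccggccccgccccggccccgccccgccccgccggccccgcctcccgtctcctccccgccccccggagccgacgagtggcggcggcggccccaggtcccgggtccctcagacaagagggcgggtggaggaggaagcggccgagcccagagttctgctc
In SMAD6, an inhibitory SMAD and a known BMP target, AAGTG at position -16 from the start site ran into GTCTAGAC at position -12, and both share bases in 1 capital run. GTCTAGAC occurred in 0.202% (71) of all 35116 promoter windows and AAGTG in 43.1% of them. BAMBI held GGCGCC 3 times, at positions -209, -196 and -181, whereas 0.871% of all windows held 3 or more matches and 19.2% held any. SMAD5 held GGCGCC once, at position 20, and SMURF2 held none of the 4 motifs. TAATTG occurred in none of the 4 windows and in 7.38% of all windows. The 4 windows were rich in G and C, with 72% in SMAD5, 68% in SMAD6, 80% in BAMBI and 79.3% in SMURF2 against a median of 58.7% over all windows. A match describes letters in the window and not binding.

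Values are on the log2 scale as deposited, after RMA normalization, so that a difference of 1 is a doubling of signal. Array medians lay between 4.63 and 4.76 and lower quartiles between 3.45 and 3.60, near which values have no order. Values are compared between lines for 1 probe set and not between genes. The lines showed the T-cell identity of their label, since 10 of 11 measured T-cell markers lay above the array median in all lines, with line means of 9.47 to 10.71 in the 5 NKL-positive lines, 10.21 in JURKAT and 9.49 to 10.34 in the NKL-negative lines. Fibroblast and endothelial markers had line means of 3.87 to 5.16 in the 5 NKL-positive lines, 4.64 in JURKAT and 3.90 to 5.12 in the NKL-negative lines, and 1 of 8 passed the array median in all lines. The poly-A spike-in controls, bacterial transcripts added before labelling, gave no signal (2.99 to 3.12) in the NKL-positive line HPB-ALL and in the NKL-negative lines MOLT-16 and CML-T1, and 5.65 to 8.76 in the other 8 lines, and differences within each of these sets stand beside the main ones. The signal of ACTB at its 3′ end exceeded that at its 5′ end by 0.17 to 0.94 in the 5 NKL-positive lines and 0.52 in JURKAT. In the NKL-negative lines it did so by 0.43 to 1.17, with the highest value of all lines in MOLT-4. MOLT-4 also had the lowest upper quartile, 6.68 against 6.90 to 7.18 in the other lines. The part of RNA integrity, which the ACTB signal measures, in the differences and in the low values of MOLT-4 was not tested.

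No member passed the adjusted threshold between NKL-positive and NKL-negative lines. The test was limma, a linear model that draws the spread of each probe set towards a common value. Its adjusted p-values ran from 0.728 to 0.999 for the 32 members, and 0.0152% of all genes were called. At an unadjusted p under 0.05 there were 5 members, SMAD1, SMAD3, TGFB1, SKI and TGFBR2, all with a higher mean in NKL-positive lines, beside 5.26% of all genes (2.63% in each direction). Differences were above 0 for 18 members and below 0 for 14, against 49.8% of all genes above 0, and the median difference was 0.22 for members and 0.00 for all genes. The groups did not overlap for 1 member, SMAD1, higher in NKL-positive lines, beside 0.379% of all genes in that direction and 0.905% in both.

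**Figure D1:**
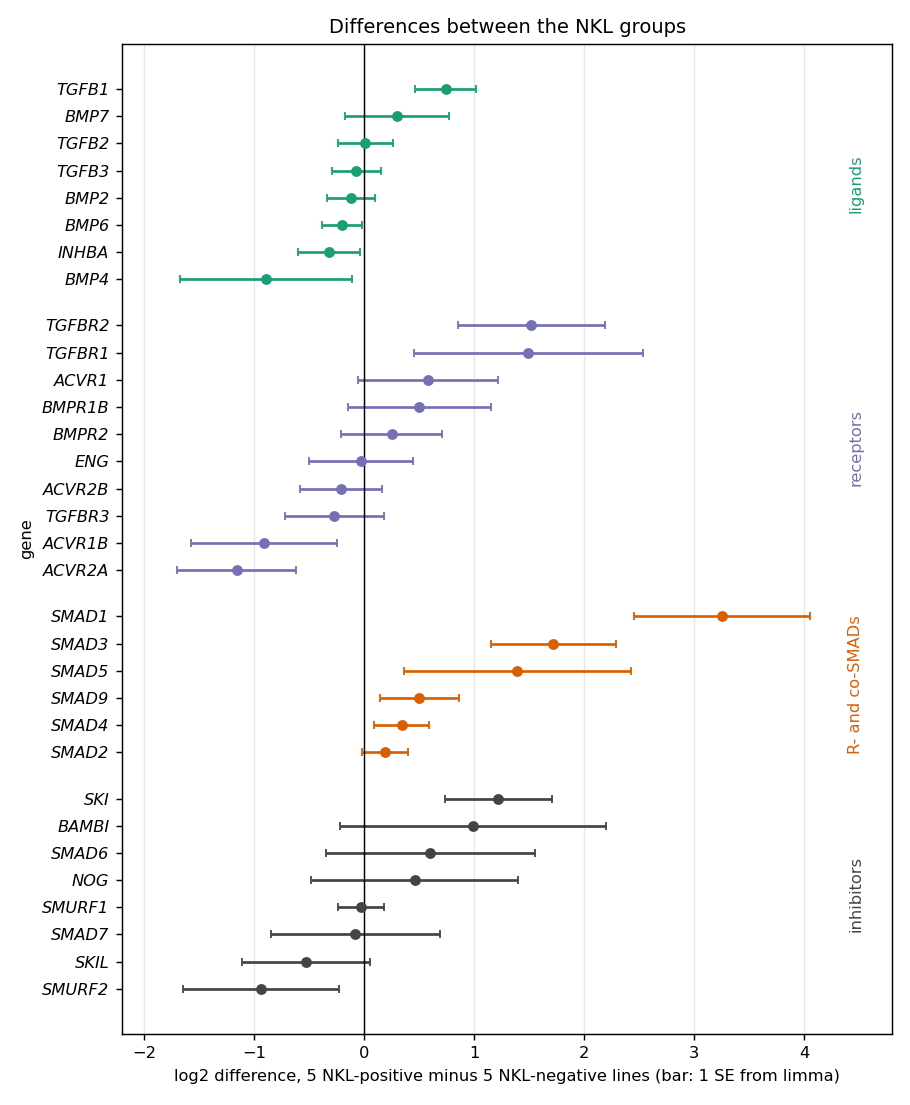
Log2 difference of the 32 members, mean of 5 NKL-positive lines minus mean of 5 NKL-negative lines (x axis), by role from top to bottom; points are the differences and bars 1 SE from limma. SMAD1 lies farthest to the right at 3.25, all 6 receptor-regulated or common SMADs lie above 0, and the ligands, receptors and inhibitors lie on both sides of 0.

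As the plot of differences shows, all 6 receptor-regulated or common SMADs had a positive difference, with a median of 0.94 and a range of 0.19 to 3.25. The sign was shared by all probe sets of SMAD1, SMAD3 and SMAD5, but by 1 of 5 of SMAD4, 1 of 2 of SMAD9 and 3 of 6 of SMAD2. Of the 8 ligands 3 were above 0 and 5 below, with a median of -0.10. The 10 receptors were split evenly around a median of 0.11, and the 8 inhibitors likewise around 0.21. These are counts over few genes, and no list was tested.

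Single lines departed widely from the others in several members. A member was said to stand out in a line if it exceeded both the array median there and, by 2 log2 units or more, the median of the remaining lines, which was met by 9 members in 15 of 352 pairs of member and line, 8 pairs among NKL-positive lines and 7 among NKL-negative ones. These 9 members are 28.1% of the 32, and 11.5% of all genes stood out in at least 1 line. Over all genes 1.88% of the pairs of gene and line stood out. Conversely a member was called low in a line where it lay at least 2 log2 units below a median of the other lines that itself was above the array median, a rule chosen after the values were seen. As the heatmap of the members shows, 8 members by this rule were low in 14 pairs, and 9.46% of all genes were low in at least 1 line. The median SD over the 11 lines was 0.97 for the members and 0.51 for all genes, and 12 members ranked in the top 10% of SD.

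**Figure D2:**
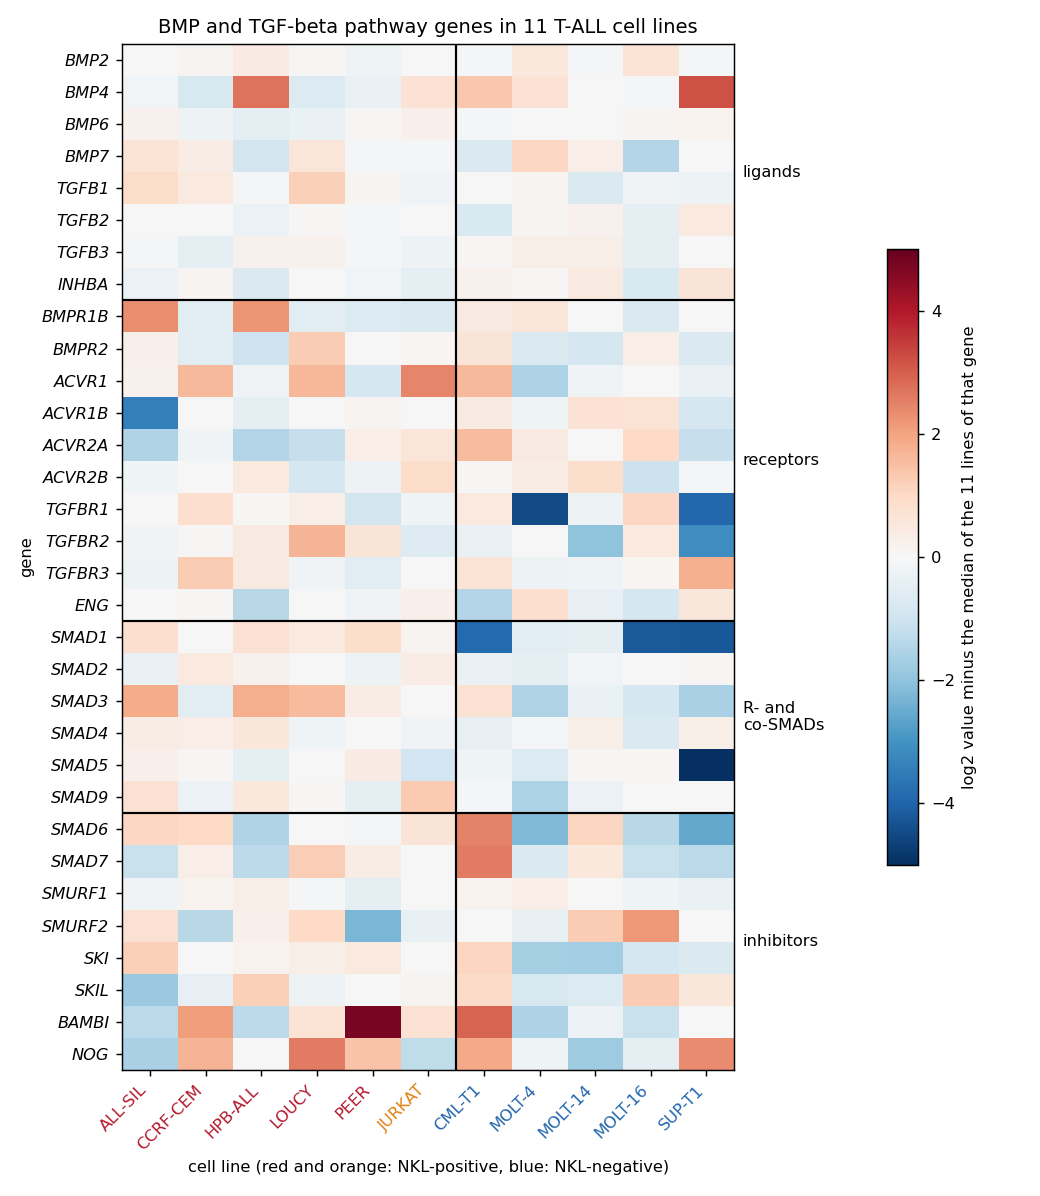
Log2 value of each member (rows, by role) in each of the 11 lines (columns, NKL-positive left of the vertical line, NKL-negative right), minus the median of the 11 lines for that gene; red is above and blue below that median. The darkest blue fields are SMAD5 in SUP-T1, TGFBR1 in MOLT-4 and SUP-T1 and SMAD1 in SUP-T1, MOLT-16 and CML-T1, and the darkest red field is BAMBI in PEER.

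Of the 8 ligands, 4 gave signals below the array median in every line at the probe set read. BMP2, BMP6, TGFB2 and INHBA, the last encoding the subunit of activin A, had values of at most 4.54 there, beside 21.9% of all genes below the median in every line. Another probe set of TGFB2 reached 5.86 in LOUCY, and another of INHBA 5.10 in CML-T1. TGFB3 ranged between 4.58 and 5.38 and BMP7, a ligand of the kidney and skeleton, between 4.78 and 7.28.

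TGFB1, the main TGF-beta of lymphoid cells, was above the array median in all lines. Its values were 9.41 in ALL-SIL, 8.97 in CCRF-CEM, 8.41 in HPB-ALL, 9.70 in LOUCY and 8.64 in PEER, 8.33 in JURKAT, and 8.49 in CML-T1, 8.63 in MOLT-4, 7.75 in MOLT-14, 8.30 in MOLT-16 and 8.24 in SUP-T1. MOLT-14 was lowest at the probe set read but highest at the second, with 5.96. At the probe set read LOUCY and ALL-SIL were highest, and the groups overlapped. NKL-positive lines averaged 9.03 ± 0.53 and NKL-negative lines 8.28 ± 0.34 (SD, n = 5 each), a difference of 0.74 (SE 0.28, limma adjusted p = 0.981). It was 0.97 among lines with poly-A signal (4 NKL-positive, 3 NKL-negative) and 0.02 among those without (1 NKL-positive, 2 NKL-negative), and 0.43 as a mean over both probe sets.

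BMP4, a ligand of the thymic stroma and of mesoderm, stood out in HPB-ALL at 7.80 and in SUP-T1 at 8.28, a line of each group. The other NKL-positive lines had 4.97 in ALL-SIL, 4.29 in CCRF-CEM, 4.43 in LOUCY, 4.76 in PEER and 5.81 in JURKAT, and the other NKL-negative lines had 6.44 in CML-T1, 5.82 in MOLT-4, 5.10 in MOLT-14 and 5.05 in MOLT-16. BMP4 was thus spread within both groups, with a difference of -0.89 (SE 0.78, adjusted p = 0.981), and it was measured by a single probe set.

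Among the receptors, TGFBR1 and TGFBR2, the type I and type II receptor kinases for TGF-beta, had low values in single NKL-negative lines. TGFBR1 had 8.53 in ALL-SIL, 9.36 in CCRF-CEM, 8.58 in HPB-ALL, 8.87 in LOUCY, 7.60 in PEER and 8.32 in JURKAT, against 9.01 in CML-T1, 4.04 in MOLT-4, 8.28 in MOLT-14, 9.55 in MOLT-16 and 4.60 in SUP-T1. MOLT-4 and SUP-T1 lay 4.51 and 3.96 below the median of the other 10 lines, while the other NKL-negative lines had 8.28 to 9.55, beside 7.60 to 9.36 in the NKL-positive lines. All 3 probe sets were lower in both lines, 1 by at least 2 log2 units in MOLT-4 and 2 in SUP-T1. The group difference was 1.49 (SE 1.04, adjusted p = 0.981).

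The genes next to TGFBR1 on chromosome 9, in the order of RefSeq, were looked up after this was seen. Among its 10 nearest measured neighbours, GALNT12, a glycosyltransferase gene, was at 4.36 in MOLT-4 and 3.23 in SUP-T1, differences of -3.15 and -4.28 from the median of the other 10 lines. ANKS6 was at 4.43 in MOLT-4 and 4.09 in SUP-T1, against a median of 6.43. ALG2 and SEC61B on the other side differed by -0.39 and 0.44 in MOLT-4 and by -0.21 and -0.46 in SUP-T1. Of the 8 neighbours above the array median in other lines, only ANKS6 and GALNT12 were low, in the same 2 lines as TGFBR1. COL15A1, between GALNT12 and TGFBR1, was at 3.08 in MOLT-4 and 2.74 in SUP-T1 with a median of 2.95 and 3.05 in the others, below the lower quartile of every array. No DNA was measured in these lines here.

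**Figure D3:**
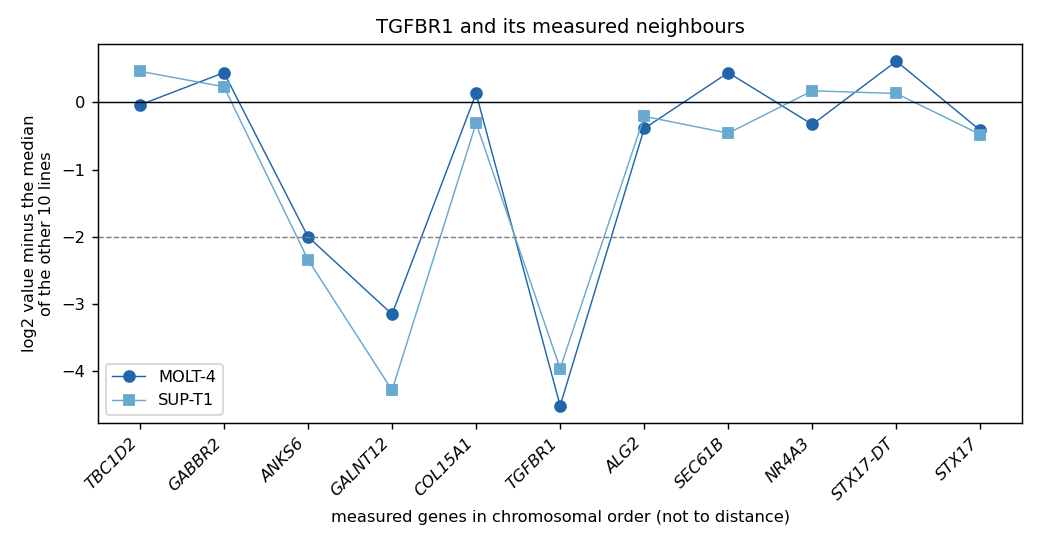
Log2 value in MOLT-4 (dark circles) and SUP-T1 (light squares) minus the median of the other 10 lines (y axis), for TGFBR1 and its 5 nearest measured genes on either side in chromosomal order (x axis, not to distance); the dashed line marks 2 log2 units below. TGFBR1, GALNT12 and ANKS6 lie at or below the dashed line in both lines, and the other genes lie within 0.61 of 0.

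TGFBR2 had 7.71 in ALL-SIL, 7.94 in CCRF-CEM, 8.32 in HPB-ALL, 9.57 in LOUCY, 8.51 in PEER and 7.24 in JURKAT, against 7.56 in CML-T1, 7.88 in MOLT-4, 5.87 in MOLT-14, 8.37 in MOLT-16 and 4.77 in SUP-T1. LOUCY was highest and SUP-T1 and MOLT-14 were low, while 3 NKL-negative lines lay among the 6 NKL-positive ones. NKL-positive lines averaged 8.41 ± 0.72 and NKL-negative lines 6.89 ± 1.51 (SD, n = 5 each), a difference of 1.52 (SE 0.67, limma adjusted p = 0.981). Without SUP-T1 it was 0.99, and it was 2.26 among lines with poly-A signal and 0.36 among those without. As a mean over both probe sets it was 0.90. At the second probe set MOLT-14 had 4.59, within the 3.86 to 5.44 of the NKL-positive lines, and SUP-T1 had 3.85. SUP-T1 thus had low values of both TGF-beta receptor kinases.

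BMPR1B, a type I BMP receptor, stood out in 2 NKL-positive lines, with 6.14 in ALL-SIL and 6.04 in HPB-ALL. The other NKL-positive lines had 3.31 in CCRF-CEM, 3.32 in LOUCY, 3.16 in PEER and 3.11 in JURKAT, and the NKL-negative lines had 4.28 in CML-T1, 4.43 in MOLT-4, 3.83 in MOLT-14, 3.09 in MOLT-16 and 3.85 in SUP-T1. A second probe set gave 6.70 in ALL-SIL and 7.0 in HPB-ALL, so that both probe sets picked out the same lines, the only 2 above the array median at each. The difference between the groups was 0.50 (SE 0.65, adjusted p = 0.982).

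ACVR1, a type I receptor for BMPs and activins, stood out in JURKAT at 7.52. It had 5.31 in ALL-SIL, 6.72 in CCRF-CEM, 4.91 in HPB-ALL, 6.76 in LOUCY and 4.22 in PEER, against 6.71 in CML-T1, 3.53 in MOLT-4, 4.90 in MOLT-14, 5.09 in MOLT-16 and 4.77 in SUP-T1. CCRF-CEM, LOUCY and CML-T1 formed a second tier that crossed the groups. MOLT-4 had the lowest value of ACVR1 as of TGFBR1.

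ACVR1B, the type I receptor of activin, was low in ALL-SIL at 4.60, whereas the other NKL-positive lines had 7.52 to 8.13 and the NKL-negative lines 7.15 to 8.74. A second probe set had 4.91 in ALL-SIL, again the lowest of all lines, and the remaining 4 probe sets lay near or below the array median. SLC4A8, 4 measured genes away on chromosome 12, was low in ALL-SIL as well (4.14 against a median of 6.25), 1 of 7 neighbours above the array median elsewhere. In the same look-up, 2 of 8 such neighbours of NOG were low in ALL-SIL and 1 of 8 in MOLT-14, and 0 were low around TGFBR2 in SUP-T1 and MOLT-14, SMAD6 in SUP-T1 and MOLT-4 and SMURF2 in PEER. All 6 such neighbours of SMAD6 were nonetheless below the other lines in MOLT-4, by -1.70 to -0.47, and lay on both sides of them in SUP-T1. They include SMAD3, itself a member, at -1.67 in MOLT-4. The remaining receptors neither stood out nor were low in any line. BMPR2, the type II BMP receptor, ranged between 5.69 and 7.98 and ACVR2B, a type II activin receptor, between 7.20 and 9.18, both above the array median in every line. ACVR2A, the related type II receptor, ranged between 3.78 and 6.88 and had the lowest difference of all members, -1.16 (SE 0.54, adjusted p = 0.981). The coreceptors TGFBR3 (betaglycan) and ENG (endoglin) ranged between 3.16 and 5.47 and between 3.62 and 5.94.

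SMAD1, a receptor-regulated SMAD of the BMP branch, separated the groups without overlap. It had 8.86 in ALL-SIL, 8.02 in CCRF-CEM, 8.77 in HPB-ALL, 8.51 in LOUCY and 8.89 in PEER, 8.15 in JURKAT, and 4.13 in CML-T1, 7.50 in MOLT-4, 7.54 in MOLT-14, 3.82 in MOLT-16 and 3.79 in SUP-T1. All 6 NKL-positive lines lay close together, whereas the NKL-negative lines fell into 2 levels, MOLT-4 and MOLT-14 just under the NKL-positive lines and the other 3 near the lower quartile of their arrays. NKL-positive lines averaged 8.61 ± 0.36 and NKL-negative lines 5.36 ± 1.98 (SD, n = 5 each), a difference of 3.25 (SE 0.80, limma adjusted p = 0.728). All 3 probe sets had the same sign, and a second gave 6.84 to 9.24 in the 5 NKL-positive lines and 2.92 to 7.27 in the NKL-negative lines, so that the groups overlapped there. The difference was 2.29 among lines with poly-A signal and 4.79 among those without, it ranged between 2.86 and 3.80 with any 1 line left out, and it was 3.18 with JURKAT included.

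**Figure D4:**
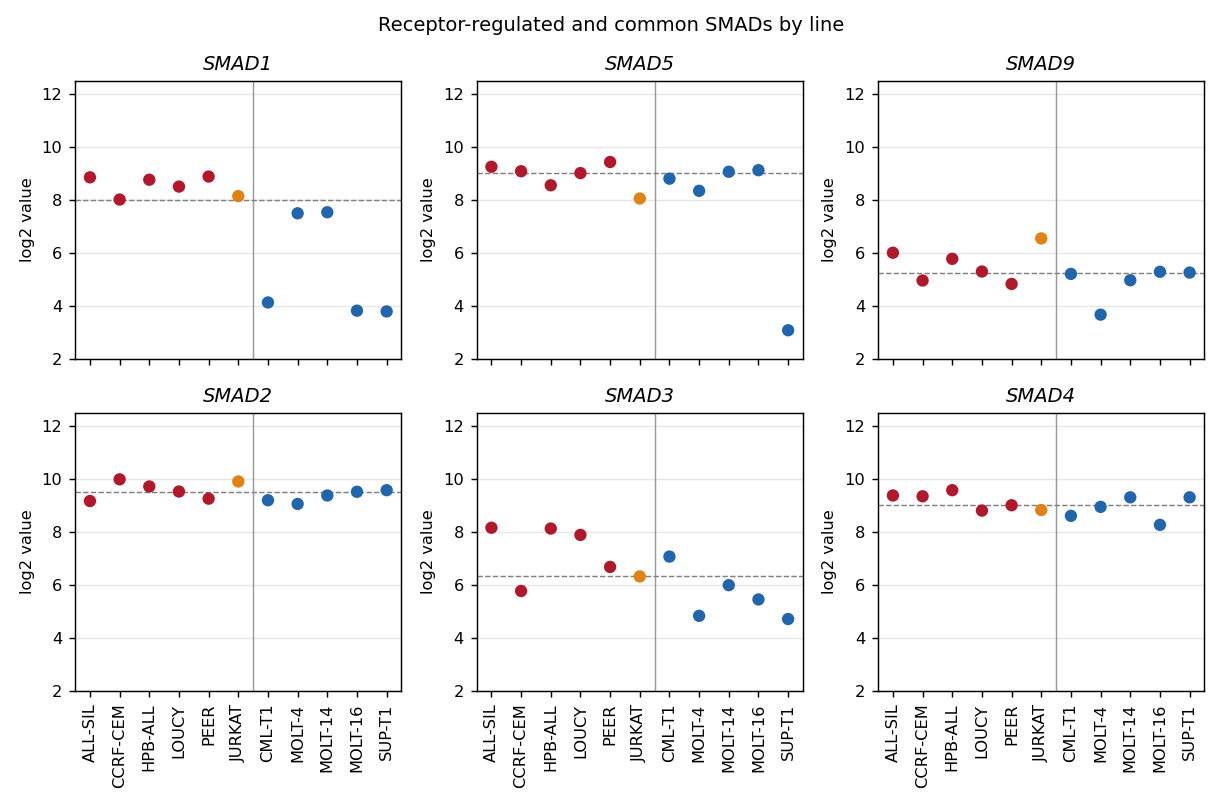
Log2 value (y axis) of the 6 receptor-regulated or common SMADs in each line (x axis); red points are NKL-positive lines, the orange point is JURKAT, NKL-positive but outside the comparison, and blue points are NKL-negative lines; the dashed line is the median of the 11 lines. SMAD1 is at 3.79 to 4.13 in CML-T1, MOLT-16 and SUP-T1, SMAD5 is at 3.08 in SUP-T1, and SMAD2 and SMAD4 stay at 8.28 or above in all lines.

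SMAD5, which acts beside SMAD1 in the BMP branch, was level in all lines but 1 at the probe set read. It had 9.26 in ALL-SIL, 9.09 in CCRF-CEM, 8.56 in HPB-ALL, 9.02 in LOUCY, 9.44 in PEER and 8.06 in JURKAT, against 8.81 in CML-T1, 8.35 in MOLT-4, 9.07 in MOLT-14, 9.13 in MOLT-16 and 3.08 in SUP-T1. SUP-T1 lay 5.96 below the median of the other lines and was low at all 5 probe sets. The dimmest probe set was less even over the other lines, from 4.12 in MOLT-4 to 7.19 in MOLT-16. SMAD1 was low in SUP-T1 too, and SMAD9, the remaining BMP-branch SMAD, was at 5.26 there, within its range of 3.67 to 6.55 over all lines. The group difference of SMAD5 was 1.39 (SE 1.03, adjusted p = 0.981), and the other 4 NKL-negative lines lay between 8.35 and 9.13.

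The neighbours of both genes in SUP-T1 differed. Around SMAD1 on chromosome 4, HHIP-AS1, HHIP and ZNF827 differed in SUP-T1 from the median of the other lines by -3.30, -2.50 and -2.50, and these were 3 of the 7 neighbours that were above the array median elsewhere. The rest of the 7, ANAPC10, ABCE1, OTUD4 and MMAA, were below the other lines by less, at -1.16, -1.27, -0.96 and -0.67. In CML-T1 and MOLT-16, in which SMAD1 was about as low, 0 of these 7 were low. Around SMAD5 on chromosome 5 only KLHL3 and HNRNPA0 were above the array median elsewhere, and they differed by 0.19 and -0.41 in SUP-T1.

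SMAD3, the TGF-beta and activin SMAD, had 8.17 in ALL-SIL, 5.78 in CCRF-CEM, 8.14 in HPB-ALL, 7.90 in LOUCY, 6.69 in PEER and 6.33 in JURKAT, against 7.08 in CML-T1, 4.84 in MOLT-4, 6.0 in MOLT-14, 5.46 in MOLT-16 and 4.72 in SUP-T1. ALL-SIL, in which it stood out, HPB-ALL and LOUCY were above all NKL-negative lines, while CCRF-CEM lay below CML-T1 and MOLT-14. NKL-positive lines averaged 7.34 ± 1.06 and NKL-negative lines 5.62 ± 0.96 (SD, n = 5 each), a difference of 1.72 (SE 0.57, limma adjusted p = 0.968). All 4 probe sets had the same sign, with differences of 1.31, 1.42 and 1.54 at the other 3. It was 1.95 among lines with poly-A signal and 1.87 among those without.

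SMAD2, the partner of SMAD3, and SMAD4, the common SMAD, were even over the lines, at 9.07 or above and at 8.28 or above in every line. Their differences were 0.19 (SE 0.21) and 0.34 (SE 0.25), and both were above the array median in all lines, as were 11 members in all and 41.6% of all genes. Of the 6 receptor-regulated or common SMADs, SMAD1, SMAD3 and SMAD5 had an SD in the top 10% of all genes.

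The inhibitors held 5 of the 9 members that stood out. SMAD6, which blocks BMP receptors and SMAD1, stood out in CML-T1 at 8.59. It had 7.12 in ALL-SIL, 7.09 in CCRF-CEM, 4.59 in HPB-ALL, 6.10 in LOUCY, 6.02 in PEER and 6.75 in JURKAT, against 3.90 in MOLT-4, 7.17 in MOLT-14, 4.73 in MOLT-16 and 3.55 in SUP-T1, and MOLT-4 and SUP-T1 were low. SMAD7, the inhibitory SMAD of both branches, stood out in the same line at 6.84. It had 3.12 in ALL-SIL, 4.59 in CCRF-CEM, 2.96 in HPB-ALL, 5.48 in LOUCY, 4.64 in PEER and 4.25 in JURKAT, against 3.53 in MOLT-4, 4.76 in MOLT-14, 3.15 in MOLT-16 and 2.92 in SUP-T1. Both inhibitory SMADs were highest in CML-T1. The reading of SMAD6 rests on 1 of its 4 probe sets, since the other 3 ranged between 3.39 and 5.54. The second of them was highest of all lines in MOLT-4, at 5.54, although the probe set read was low there. SMAD7 had a single probe set.

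BAMBI, a decoy receptor without kinase domain, spanned 6.29 log2 units over the lines. It had 3.71 in ALL-SIL, 7.16 in CCRF-CEM, 3.77 in HPB-ALL, 5.77 in LOUCY, 9.82 in PEER and 5.83 in JURKAT, against 7.99 in CML-T1, 3.53 in MOLT-4, 4.76 in MOLT-14, 3.94 in MOLT-16 and 5.07 in SUP-T1. It stood out in PEER, CML-T1 and CCRF-CEM, by 4.91, 3.08 and 2.25 over the other lines. NOG (noggin), a secreted antagonist that binds BMPs, had 3.12 in ALL-SIL, 6.44 in CCRF-CEM, 4.73 in HPB-ALL, 7.33 in LOUCY, 6.15 in PEER and 3.45 in JURKAT, against 6.62 in CML-T1, 4.50 in MOLT-4, 2.96 in MOLT-14, 4.30 in MOLT-16 and 7.08 in SUP-T1. It stood out in LOUCY, SUP-T1 and CML-T1 and was low in ALL-SIL and MOLT-14. The groups overlapped for both genes, with differences of 0.99 for BAMBI (SE 1.21, adjusted p = 0.982) and 0.46 for NOG (SE 0.94, adjusted p = 0.991).

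CML-T1 therefore held 4 of the 15 standing-out pairs, all inhibitors, namely SMAD6, SMAD7, BAMBI and NOG, while 3.34% of all genes stood out in that line, the highest share of the 11. Some markers of other blood lineages stood out in CML-T1 too. They were the myeloid genes LYZ at 5.21 and ITGAM at 7.08 and the B-cell genes MS4A1 at 6.54 and CD79A at 10.12. The other myeloid and B-cell markers measured did not stand out there. CD14 at 3.04, MPO at 3.51 and PAX5 at 3.73 had their lowest values of all lines there, and FCGR1A at 3.62 its highest. The part of these markers in the inhibitor values was not tested. LYZ and ITGAM also stood out in LOUCY, at 5.48 and 6.76, as did CD79A at 9.25, CD79B at 8.25 and the platelet gene ITGA2B at 7.86. In LOUCY NOG stood out at 7.33, and SMAD6 had 6.10, SMAD7 5.48 and BAMBI 5.77. Over the 6 myeloid markers measured, line means were 3.73 to 4.7 in the 5 NKL-positive lines, 3.69 in JURKAT and 3.59 to 4.39 in the NKL-negative lines, and over the 6 B-cell markers they were 4.82 to 6.05 in the 5 NKL-positive lines, 4.82 in JURKAT and 4.43 to 5.95 in the NKL-negative lines.

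SMURF2, a ubiquitin ligase that targets receptors and SMADs, was above the array median in all lines and stood out in MOLT-16 at 10.71. It had 9.30 in ALL-SIL, 7.16 in CCRF-CEM, 8.78 in HPB-ALL, 9.52 in LOUCY, 6.24 in PEER and 8.16 in JURKAT, against 8.52 in CML-T1, 8.16 in MOLT-4, 9.78 in MOLT-14 and 8.53 in SUP-T1. PEER was low at all 4 probe sets, and CCRF-CEM was next. Its relative SMURF1 ranged between 6.11 and 6.91 only.

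SKI, a corepressor of SMAD2, SMAD3 and SMAD4, had 8.54 in ALL-SIL, 7.32 in CCRF-CEM, 7.54 in HPB-ALL, 7.65 in LOUCY, 7.85 in PEER and 7.35 in JURKAT, against 8.41 in CML-T1, 5.68 in MOLT-4, 5.63 in MOLT-14, 6.46 in MOLT-16 and 6.62 in SUP-T1. At this probe set all NKL-negative lines but CML-T1 were below all NKL-positive lines. NKL-positive lines averaged 7.78 ± 0.47 and NKL-negative lines 6.56 ± 1.13 (SD, n = 5 each), a difference of 1.22 (SE 0.49, limma adjusted p = 0.981). It was 1.86 among lines with poly-A signal, 0.11 among those without and 0.71 as a mean over its 3 probe sets, which shared the sign. The order of the lines was not shared, since MOLT-4 at 6.83 and MOLT-14 at 6.24 were highest of all lines at the second probe set. The difference there was 0.15. SKIL, the related corepressor, ranged between 4.83 and 7.97 with a difference of -0.53 (SE 0.58, adjusted p = 0.981).

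SUP-T1 was the line with the most low members, 5 of the 14 low pairs, namely TGFBR1, TGFBR2, SMAD1, SMAD5 and SMAD6, beside 2.43% of all genes low in that line. These cover a type I and a type II TGF-beta receptor, both main BMP-branch SMADs and an inhibitor, while SMAD2 at 9.59, SMAD4 at 9.32, ACVR2B at 8.21 and SMURF2 at 8.53 were measured well above the array median there. BMP4 and NOG stood out in the same line.

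The members were then set beside MSX1 and NKX2-5 by line. MSX1 was 3.49 in ALL-SIL, 5.50 in CCRF-CEM, 6.95 in HPB-ALL, 8.04 in LOUCY, 3.22 in PEER and 7.69 in JURKAT, against 3.21 in CML-T1, 5.59 in MOLT-4, 5.42 in MOLT-14, 3.82 in MOLT-16 and 3.55 in SUP-T1, and a second probe set of 3.76 to 5.29 stood out nowhere. NKX2-5 was 11.41 in CCRF-CEM and 10.10 in PEER and ranged between 4.07 and 5.99 in the other 9 lines. The labels form no groups by these genes, so that lines were not averaged or tested by them.

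In the 3 lines with high MSX1, HPB-ALL, LOUCY and JURKAT, 0 of 32 members lay above or below all other 8 lines, beside 0.794% of all genes. BMP4 was 2nd of 11 in HPB-ALL but 10th in LOUCY and 5th in JURKAT. BMPR1B was 2nd in HPB-ALL at 6.04, against 3.32 in LOUCY and 3.11 in JURKAT, and NOG was 1st in LOUCY and 9th in JURKAT. SMAD1 ranked 3rd, 4th and 5th in HPB-ALL, LOUCY and JURKAT, with 8.77, 8.51 and 8.15. BMP4, BMPR1B and NOG were thus uneven among the lines with high MSX1.

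In both lines with high NKX2-5, CCRF-CEM and PEER, 1 of 32 members, SMURF2, lay below all other lines, at 7.16 and 6.24 against 8.16 to 10.71, beside 2.59% of all genes outermost in these lines. BAMBI at 7.16 and 9.82 ranked 3rd and 1st of 11, with CML-T1 between them at 7.99 and an NKX2-5 value of 5.99. NOG at 6.44 and 6.15 ranked 4th and 5th, and BMP4 at 4.29 and 4.76 ranked 11th and 9th. With 2 lines, a share of 1 in 32 lies near that of all genes.

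**Figure D5:**
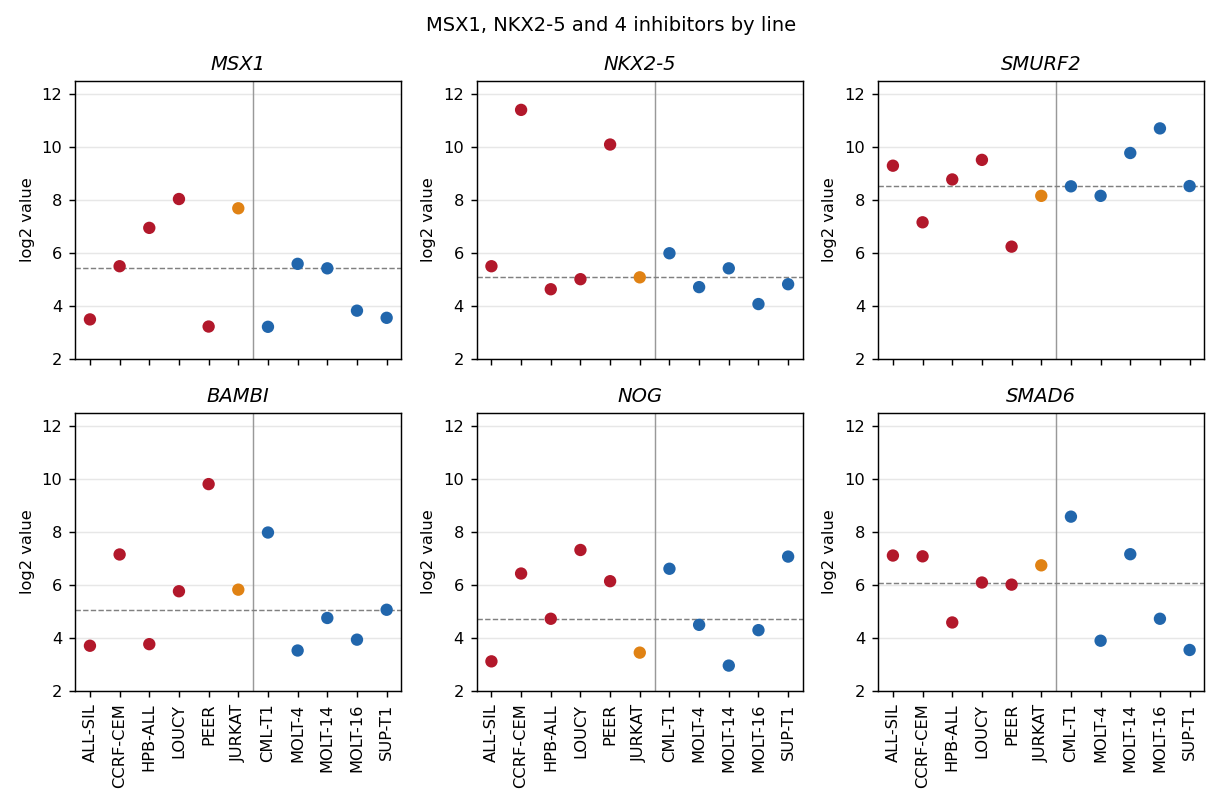
Log2 value (y axis) of MSX1, NKX2-5 and the inhibitors SMURF2, BAMBI, NOG and SMAD6 in each line (x axis); red points are NKL-positive lines, the orange point is JURKAT and blue points are NKL-negative lines; the dashed line is the median of the 11 lines. NKX2-5 is high in CCRF-CEM and PEER, in which SMURF2 has its lowest values of 7.16 and 6.24, and BAMBI is highest in PEER, CML-T1 and CCRF-CEM.

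Other genes of the pathway were read from a list of 70, of which 66 were measured. At the adjusted threshold 0 differed, beside 0.0152% of all genes, and at an unadjusted p under 0.05 there were 1 with a higher and 3 with a lower mean in NKL-positive lines, beside 2.63% of all genes in each direction. Differences were above 0 for 29 and below 0 for 37, with a median of -0.03, beside 49.8% of all genes above 0. Of the 66, 14 stood out in at least 1 line, beside 11.5% of all genes.

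PPM1A, a phosphatase of receptor-regulated SMADs, had 8.60 in ALL-SIL, 8.96 in CCRF-CEM, 9.09 in HPB-ALL, 8.76 in LOUCY and 9.07 in PEER, 9.18 in JURKAT, and 9.51 in CML-T1, 9.76 in MOLT-4, 9.11 in MOLT-14, 9.50 in MOLT-16 and 9.65 in SUP-T1. The 5 NKL-positive lines were below all NKL-negative lines by a narrow gap, and JURKAT lay inside the NKL-negative range. The difference was -0.61 (SE 0.19, limma adjusted p = 0.916). ZNF423, a zinc finger cofactor of SMAD1 and SMAD4 at BMP targets, had 3.34 in ALL-SIL, 10.17 in CCRF-CEM, 4.59 in HPB-ALL, 8.21 in LOUCY, 9.05 in PEER and 3.34 in JURKAT, against 11.52 in CML-T1, 9.62 in MOLT-4, 8.20 in MOLT-14, 11.17 in MOLT-16 and 12.11 in SUP-T1. Its 3 highest lines, CML-T1, MOLT-16 and SUP-T1, were the 3 lines with the lowest SMAD1, while the groups overlapped and the difference was -3.45 (SE 1.31, adjusted p = 0.981). TAB1, an activator of the kinase TAK1, had a difference of 0.53 (SE 0.21, adjusted p = 0.981) and the ligand GDF7 one of -0.49 (SE 0.21, adjusted p = 0.981).

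Among the target genes, PMEPA1, a TGF-beta target that dampens SMAD signalling, was 8.01 in ALL-SIL, 9.26 in HPB-ALL and 9.98 in JURKAT, and 9.54 in SUP-T1, against 2.92 to 5.17 in the other 7 lines. Its 4 high lines included SUP-T1, in which TGFBR1 was 4.60 and TGFBR2 4.77. ID3, a BMP target that blocks E proteins, stood out in JURKAT at 10.31 and was 3.91 in SUP-T1, in which SMAD1 and SMAD5 were low, and lay at 6.95 or above in the other 9 lines. ID1, another BMP target, named after its values were seen, was 9.22 in SUP-T1, against 2.96 to 9.25 in the other 10 lines. ID2, its relative, stood out in LOUCY at 10.09, CML-T1 at 10.23 and MOLT-16 at 9.14. HEY1, from the same list of target genes and named after its values were seen, was highest in SUP-T1 at 11.63. It also stood out in MOLT-4 at 6.81. Target genes in SUP-T1 thus lay in both directions, and their relation to the low SMADs was not tested.

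Among secreted binders and coreceptors, CHRDL1, a BMP antagonist, was 9.77 in LOUCY and 6.08 in SUP-T1, the same 2 lines in which NOG was highest, and 2.84 to 5.50 elsewhere. RGMB, a BMP coreceptor, stood out in CCRF-CEM at 7.08, HPB-ALL at 6.69 and JURKAT at 8.38. GDF10, a ligand of the family, was 7.97 in CCRF-CEM, 5.15 in PEER and 7.70 in MOLT-16. The NKL groups overlapped for all 3 of these genes.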

How the data were processed

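Expression was measured on 11 T-ALL cell lines, 6 NKL-positive and 5 NKL-negative, with 1 Affymetrix HG U133 Plus 2.0 array each. The authors processed the arrays by RMA with background correction and quantile normalization, using the affy and limma packages (versions not given in the sources used here), and the deposited values are on the log2 scale, between 2.24 and 14.57. The methods also describe ratios to the sample mean, which the deposited values are not. The number of arrays limits the precision.

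Values were used without further scaling or filter, and 62 control probe sets were left out. In the array annotation 41091 probe sets carry 1 symbol, 1801 several and 11721 none, and 41037 matched RefSeq genes by gene ID, with 0 symbols updated. Groups were compared with limma 3.58.1 in R 4.3.3 over 5 lines each, two-sided, with Benjamini-Hochberg adjustment over 54613 probe sets and no covariates, and the p-values measure the spread between single lines. The procedure was run on simulated data with large set differences and a spread other than that of the lines. Such a run checks the calculation and cannot show which differences the comparison could have found. Promoters came from RefSeq (GRCh38.p14), in which 28 members had 55 windows listed.

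Differences with their errors were planned for members at an unadjusted p under 0.05 or without overlap. Values by line were planned for these, for members that stood out and for those in the top 10% of SD. Differences of some other members were added outside this rule. Of other pathway genes, those at an unadjusted p under 0.05 or standing out in CCRF-CEM, HPB-ALL, LOUCY, PEER or JURKAT were named. ID1 and HEY1 were named outside this rule. The members and lists were chosen with earlier results of these data known. Alternatives were other lines, a poly-A term, other normalizations, floors and filters, other limma settings, the mean over probe sets and other limits for standing out. The genes next to a member and the rule for low values were added after values were seen.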

Additional observations from a re-analysis of the deposited data

Results flagged for a closer look

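Within each NKL group the members were searched for a single line far from the rest, by Dixon's criterion at 95% over 64 groups of lines, and 4 values were marked, where chance alone marks about 1 group in 20. ACVR1B was 4.60 in ALL-SIL, against 7.52 to 8.13 in the other NKL-positive lines. ENG was 3.71 in HPB-ALL, against 4.91 to 5.37 in the other NKL-positive lines, and it was 3.62 in CML-T1 and 4.25 in MOLT-16, the other arrays without poly-A signal, against 4.68 to 5.94 in the 8 lines with it. The part of this array difference in the value was not tested. SMAD5 was 3.08 in SUP-T1, against 8.35 to 9.13 in the other NKL-negative lines. SMAD9 was 3.67 in MOLT-4, against 4.97 to 5.29 in the other NKL-negative lines. The value of SMAD5 was matched at all 5 probe sets, whereas the second probe set of SMAD9 gave 4.50 in MOLT-4, among the highest of the lines.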

How the results depend on the processing

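Under every alternative 0 members passed the adjusted threshold, with any 1 line left out as well. The count of members at an unadjusted p under 0.05, 5 as reported, was 9 among lines with poly-A signal (beside 7.83% of all genes), 8 with JURKAT added to them (7.17%) and 3 with the mean over probe sets (5.08%), and ranged from 2 to 5 with 1 line left out. Without overlap there was 1 member, against 6 among lines with poly-A signal (7.88% of all genes), 4 with JURKAT added (4.59%), 21 among lines without it, where 1 NKL-positive line meets 2 NKL-negative lines (67.8%), and 1 to 3 with 1 line left out. Of 352 pairs of member and line 15 stood out, beside 1.88% of the pairs of all genes. At a gap of 1 log2 unit there were 45 (6.43% of the pairs of all genes) and at a gap of 3 there were 3 (0.782%). The cause of these shifts was not tested. No difference of SMAD1, SMAD3, TGFB1, SKI or TGFBR2 changed sign. Leaving out 1 line gave 2.86 to 3.80 for SMAD1, 1.49 to 2.10 for SMAD3, 0.58 to 0.90 for TGFB1, 0.99 to 1.68 for SKI and 0.99 to 1.89 for TGFBR2. No paired analysis was possible because the groups share no lines. Dim signals, around the lower quartile of each array, cannot be ordered.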

Other observations

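Further pathway genes had high values in single lines. INHBE, a subunit of activin E, was 6.94 in HPB-ALL and 6.46 in CML-T1, and 2.78 to 3.94 in the other lines. LTBP1, which binds latent TGF-beta, was 8.33 in LOUCY and 4.14 in ALL-SIL. FBN1, the gene of fibrillin, was 7.97 in HPB-ALL and 4.09 in LOUCY. RGMA, a BMP coreceptor, was 6.44 in CCRF-CEM and 7.45 in MOLT-4. ID1, a direct BMP target named after its values were seen, was 9.19 in ALL-SIL, 4.90 in CCRF-CEM, 7.45 in HPB-ALL, 4.31 in LOUCY, 6.91 in PEER and 9.25 in JURKAT, against 7.86 in CML-T1, 8.27 in MOLT-4, 8.27 in MOLT-14, 2.96 in MOLT-16 and 9.22 in SUP-T1.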
